A study of Mus musculus with 12 samples.

Results

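The calcitonin receptor-like receptor Calcrl, its partner proteins Ramp1, Ramp2 and Ramp3, and the peptide precursors Adm, Adm2 and Calca were followed in bulk RNA-seq of mouse ventricle. These 7 genes were taken from the 54949 features of the table by symbol, and each symbol matched 1 row. They were chosen by their measured values in the same comparison of libraries that is given here, so their differences are a description and carry no test. RNA came from ventricular tissue, with the atria removed, of wild-type male C57BL/6N mice that were 8 weeks old at the start and were kept for 5 weeks.

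The groups are named by their libraries, because the labels contradict each other. The 6 HF-named libraries carry sample titles of the control (CON) and a normal diet as treatment. The 6 con-named libraries carry titles of HFpEF (heart failure with preserved ejection fraction) and a treatment of high-fat diet with 0.5 g/L L-NAME given to drink. L-NAME blocks the nitric oxide synthases. Which group of mice had the diet and L-NAME could not be settled, so every direction below is between library names. The design text gives 5 bulk samples a group and the labels hold 6. The labels do not say that the libraries of a group came from separate mice, so the p-values measure only the spread between these libraries.

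CALCRL is a G protein-coupled receptor that reaches the cell surface and binds its peptides only together with a receptor activity-modifying protein (RAMP). With RAMP1 it forms the receptor for calcitonin gene-related peptide (CGRP), a strong vasodilator released from sensory nerves, and with RAMP2 or RAMP3 it forms the adrenomedullin receptors. Adrenomedullin, encoded by Adm, is a vasodilator peptide made by endothelial and other cells of the heart and vessel wall, and Calcrl and Ramp2 are known for their high expression in endothelium. Receptor binding raises cyclic AMP through the G protein Gs.

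The upstream sequences of Ramp1, Adm and Calcrl are shown because Ramp1 and Adm had the members' widest separation between the groups and Calcrl encodes the receptor they meet. Each is the stretch of 250 bases before the RefSeq gene start on GRCm38.p6, read 5′ to 3′ on the gene's strand. Capitals mark matches on either strand to motifs. GCGTG is a core of hypoxia response elements. The GC box searched was GGGCGG. The TATA element searched was TATAA.
Ramp1 (chr1:91179572-91179821, plus strand): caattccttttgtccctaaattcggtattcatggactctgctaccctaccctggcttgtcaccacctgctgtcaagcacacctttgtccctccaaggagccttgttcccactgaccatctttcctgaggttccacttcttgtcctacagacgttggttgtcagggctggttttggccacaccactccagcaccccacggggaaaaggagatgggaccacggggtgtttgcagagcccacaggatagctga
Adm (chr7:110627407-110627656, plus strand): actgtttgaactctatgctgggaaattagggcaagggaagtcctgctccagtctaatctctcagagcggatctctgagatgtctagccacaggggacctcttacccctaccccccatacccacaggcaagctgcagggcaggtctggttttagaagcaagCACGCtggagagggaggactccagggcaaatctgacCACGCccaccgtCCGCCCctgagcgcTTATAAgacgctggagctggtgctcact
Calcrl (chr2:84425267-84425516, minus strand): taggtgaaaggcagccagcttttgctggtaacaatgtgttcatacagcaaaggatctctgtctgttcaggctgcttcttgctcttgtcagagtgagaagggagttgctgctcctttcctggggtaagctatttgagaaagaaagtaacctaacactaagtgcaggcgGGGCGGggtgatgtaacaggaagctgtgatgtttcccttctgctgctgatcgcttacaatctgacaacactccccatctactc
The RefSeq table matched 6 of the 7 members and has windows of 300 bases, with 50 bases after the start. Adm held GCGTG on the minus strand at positions -90 to -86 and -54 to -50, counting the start base as 0. Its TATAA matches on the 2 strands overlapped, at -28 to -24 and -27 to -23, and a GGGCGG match lay at -42 to -37. Calcrl held GGGCGG at -83 to -78 and GCGTG at 21 to 25, after the start. Ramp1 held none of these 3 motifs, and its only match among the 6 motifs searched was TGACG (the short form of the cyclic AMP response element) on the minus strand at 10 to 14, after the start. Of the table's 32851 windows, 32.4% held GCGTG, 35.7% GGGCGG, 24.9% TATAA and 20.8% TGACG on either strand. Among members, GCGTG and GGGCGG were each in Adm, Calcrl and Ramp3, TATAA was in Adm alone, and TGACG was in Calca and Ramp1. The other hypoxia core, ACGTG, was in 19.6% of windows and in 0 of the 6 members, and CCAAT was in 37.4% and, among members, in Calca alone.

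Calcrl, Ramp1, Ramp2, Ramp3 and Adm were measurable and Adm2 and Calca were not. Ramp1 was lower in HF-named libraries, at 0.412 of its con-named level, and Adm at 0.755 of its con-named level. In both genes each of the 6 HF-named libraries lay below each of the 6 con-named libraries. Calcrl was lower on average with overlapping groups, Ramp2 was close to its con-named level, and Ramp3 was split within the HF-named group. Over all genes, 13.3% of 15114 tested genes passed an adjusted p of 0.05 (edgeR's quasi-likelihood test, Benjamini-Hochberg adjustment), 5.05% lower and 8.28% higher in HF-named libraries. All HF-named libraries were below all con-named ones in 1.95% of them. Of the 5 members tested, 2 passed, both lower, and 4 had a negative log2 fold change. Nothing is read from these counts, because the same comparison chose the members.

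**Figure D1:**
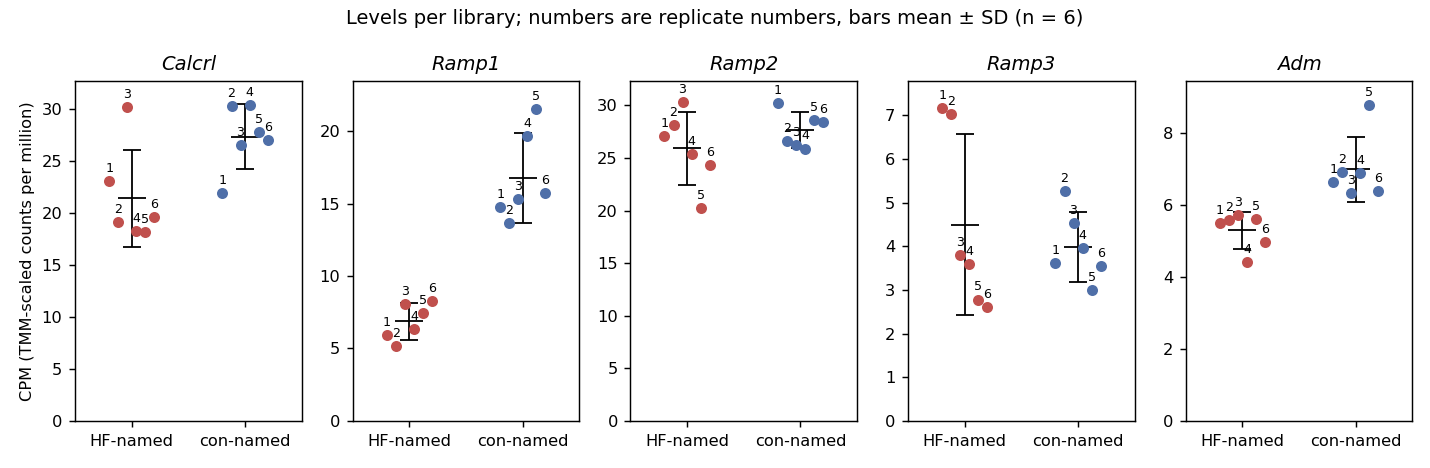
Levels in CPM (counts relative to the library total, scaled by edgeR's trimmed mean of M-values, TMM) of the 5 measurable members in each of 12 libraries; points carry the replicate number, and bars show the mean ± SD (n = 6 a group). HF-named Ramp1 lies between 5.14 and 8.30 CPM, below every con-named library, while Ramp3 has HF-named libraries 1 and 2 above 7 CPM and the other 4 below 4.

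Library totals were 14443186 to 22048689 counts in HF-named and 14647162 to 19073998 in con-named libraries, and 3 counts corresponded to 0.136 to 0.208 CPM. Mitochondrial transcripts took 25.2% ± 1.19 of counts in HF-named libraries and 22.4% ± 1.10 in con-named ones (SD, n = 6 each). The median log2 fold change of all tested genes was -0.01. When scaled to library totals in place of TMM it was -0.13, and 15.8% of called genes were higher in HF-named libraries, against 62.1% with TMM. The listed cardiomyocyte markers summed to 65930 to 73160 CPM in HF-named and 63020 to 71540 CPM in con-named libraries and were the most abundant of the marker lists. Of the 10 listed, 2 rose and 4 fell: Ttn and Ryr2 rose (0.40 and 0.46), and Tnnt2, Tnni3, Myl2 and Myl3 fell (-0.23, -0.25, -0.24 and -0.25), all but Tnnt2 named after their values were seen. The Tnnt2 call was lost in 10 of 12 fits without 1 library, all but those without HF-named 5 or con-named 2 (edgeR adjusted p up to 0.10), and without HF-named libraries 1 and 2 together (0.156). Atrial markers summed to 89.0 to 252 CPM in HF-named and 118 to 175 CPM in con-named libraries, with HF-named library 1 the highest. Of the 6 listed, 3 were tested and 0 passed. The atrial genes left untested differed in direction, and all were named after their values were seen. Bmp10 had 2 counts over the HF-named and 3 over the con-named libraries. Myl7 had 50 counts over the HF-named and 6 over the con-named libraries, and Sln 20 and 1.

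Calcrl, the receptor subunit that all 3 RAMPs share, had 18.2, 19.4 and 30.1 CPM as its lowest, median and highest HF-named value, against 21.9, 27.4 and 30.4 CPM in con-named libraries. HF-named libraries 2, 4, 5 and 6 were below all con-named libraries, and HF-named library 3 sat at the top of the con-named range. Calcrl averaged 21.4 ± 4.65 CPM in HF-named and 27.3 ± 3.13 CPM in con-named libraries (SD, n = 6 each). Its log2 fold change of -0.36 ± 0.12 (SE) did not pass the threshold. Without HF-named library 3 it was -0.48 and passed. It also passed without con-named library 1, and under 6 of the 8 other processing settings. Calcrl lies on chromosome 2 at 84330626 to 84425411, minus strand, with 0 exon bases shared with another gene (GENCODE M21 on mm10, here and below).

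Ramp1, the CGRP receptor's accessory subunit, had 5.14, 6.90 and 8.30 CPM as its lowest, median and highest HF-named value. The con-named values were 13.6, 15.5 and 21.5 CPM. The highest HF-named library was thus well below the lowest con-named one, and the spread within each group was alike in proportion, with a coefficient of variation of 18.3% in HF-named and 18.4% in con-named libraries. Counting alone would give 9.29% in HF-named and 5.80% in con-named libraries, from 71 to 175 reads a HF-named and 230 to 409 reads a con-named library. Ramp1 averaged 6.87 ± 1.26 CPM in HF-named and 16.8 ± 3.09 CPM in con-named libraries, a log2 fold change of -1.28 ± 0.13 (SE). It passed the threshold in each of the 12 fits that left out 1 library, between -1.34 and -1.20. Ramp1 lies on chromosome 1 at 91179822 to 91225196, plus strand, and shares no exon base with another gene.

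Ramp2, the accessory subunit of the main adrenomedullin receptor, had 20.3, 26.2 and 30.3 CPM as its lowest, median and highest HF-named value, against 25.9, 27.5 and 30.2 CPM in con-named libraries. The HF-named libraries fell on both sides of a narrow con-named range, 3 below it, 2 inside it and 1 just above it. The means were 25.9 ± 3.47 CPM in HF-named and 27.7 ± 1.69 CPM in con-named libraries, with a log2 fold change of -0.10 ± 0.08 (SE) that did not pass. Ramp2 lies on chromosome 11 at 101246028 to 101259546, plus strand. Its values carry a limit, since 33.4% of its exon bases (1103) are shared with Vps25 on the same strand and how reads there were assigned is not given in the sources used here.

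Ramp3, the accessory subunit of the second adrenomedullin receptor, had 7.18 and 7.03 CPM in HF-named libraries 1 and 2 and 2.61 to 3.79 CPM in HF-named libraries 3 to 6. The con-named libraries had 3.0, 3.79 and 5.27 CPM as lowest, median and highest. Libraries of 1 group thus lay both above and below the whole con-named range. The HF-named coefficient of variation was 46.0%, against 20.2% in con-named libraries, where counting alone would give 11.9% in both. The means were 4.50 ± 2.07 CPM in HF-named and 3.99 ± 0.806 CPM in con-named libraries, and the log2 fold change of 0.15 ± 0.24 (SE) did not pass. It was -0.04 without HF-named library 1, -0.02 without library 2 and -0.33 without both, a pairing chosen after seeing the data. The summed atrial markers were 252 CPM in HF-named library 1 and 102 CPM in HF-named library 2. Of that list, Myl4, Myl7, Sln and Bmp10 averaged only 1.75, 0.494, 0.211 and 0.0209 CPM in HF-named libraries, all named after their values were seen. The sum therefore rested on the other listed genes. The part of atrial tissue in the Ramp3 split was not tested. Ramp3 lies on chromosome 11 at 6658521 to 6677475, plus strand, and shares 7.32% of its exon bases with Gm11978 on the opposite strand.

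Adm, the adrenomedullin precursor, had 4.41, 5.55 and 5.72 CPM as its lowest, median and highest HF-named value. The con-named values were 6.34, 6.78 and 8.79 CPM. The groups did not overlap, though the gap between the highest HF-named and the lowest con-named library was narrow, and con-named library 5 stood above its group. Adm averaged 5.31 ± 0.508 CPM in HF-named and 6.997 ± 0.912 CPM in con-named libraries, with a log2 fold change of -0.40 ± 0.10 (SE). The coefficient of variation was 9.57% in HF-named and 13% in con-named libraries, where counting alone would give 10.7% in HF-named (75 to 105 reads a library) and 8.95% in con-named ones (95 to 167 reads). Without con-named library 5 or any other single library the value stayed between -0.44 and -0.34 and past the threshold. Adm lies on chromosome 7 at 110627661 to 110629820, plus strand.

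The remaining 2 peptide genes were at or under the floor of 3 counts over a group. Adm2, which encodes intermedin, another CALCRL ligand, had 1 count over the HF-named and 0 over the con-named libraries. Calca, which encodes calcitonin and CGRP, had 1 count over the HF-named and 2 over the con-named libraries. No fold is given for either. Calca is known for its expression in sensory neurons, whose cell bodies lie outside the heart. Adm2 lies on chromosome 15 at 89322720 to 89324731, plus strand, and Calca on chromosome 7 at 114631478 to 114636357, minus strand. The authors' deposited comparison, which they named HF against control, lists log2 fold changes of -1.28 for Ramp1, -0.40 for Adm and -0.35 for Calcrl. Ramp2 is listed at -0.10 and Ramp3 at 0.16. These have the signs of HF-named over con-named, so the authors' comparison follows the library names and not the titles or treatments. It does not settle which mice were treated.

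Levels of different genes were compared per length, on the deposited FPKM values (counts scaled to gene length and library total). Ramp2 was the highest member, at 7.57 ± 1.28 FPKM in HF-named and 8.70 ± 0.548 FPKM in con-named libraries, and was above Calcrl in each of 6 HF-named and 6 con-named libraries. Calcrl followed with 4.23 ± 1.10 FPKM in HF-named and 5.82 ± 0.799 FPKM in con-named libraries, and was above Adm in every library of both groups. Ramp1 had 2.18 ± 0.419 FPKM in HF-named libraries, below Calcrl in all 6, and 5.78 ± 1.17 FPKM in con-named libraries, above Calcrl in 3 of 6. Adm had 3.15 ± 0.363 FPKM in HF-named and 4.50 ± 0.732 FPKM in con-named libraries. Ramp3 had 3.15 ± 1.498 FPKM in HF-named and 3.01 ± 0.653 FPKM in con-named libraries. Ramp1 stood below Adm in 6 of 6 HF-named libraries and above it in 6 of 6 con-named ones. Ramp3 was above Ramp1 in 4 of 6 HF-named and 0 of 6 con-named libraries. In the HF-named group Ramp3 could not be ordered against Adm or Ramp1 beyond its spread, and in the con-named group Calcrl and Ramp1 could not be ordered against each other.

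The RAMPs share 1 receptor protein as partner, and the makeup of the RAMP transcripts was set out library by library. Ramp1 made up 17.5% ± 5.01 of the summed RAMP FPKM in HF-named libraries (11.1 to 23.2%) and 32.9% ± 4.81 in con-named ones (27.5 to 39.7%), with no overlap. The Ramp2 share was 58.9% ± 3.84 in HF-named and 49.9% ± 3.33 in con-named libraries. The Ramp3 share was 33.8% and 33.3% in HF-named libraries 1 and 2, and over all 6 it averaged 23.6% ± 7.88, against 17.3% ± 3.91 in con-named libraries. These shares are of transcripts, not of receptor protein. Ramp1 per Calcrl was 0.531 ± 0.122 in HF-named libraries (0.414 to 0.684) and 0.999 ± 0.176 in con-named ones (0.728 to 1.25). The 3 RAMPs together per Calcrl were 3.11 ± 0.517 in HF-named and 3.04 ± 0.379 in con-named libraries. The lower Ramp1 share thus stood beside a summed RAMP level per Calcrl whose means differed by less than their SD. Calcrl, the divisor, was itself lower on average in HF-named libraries (4.23 against 5.82 FPKM). The ratio therefore does not show that the summed RAMP level was unchanged. Mean FPKM in HF-named against con-named libraries was 2.18 against 5.78 for Ramp1, 7.57 against 8.70 for Ramp2 and 3.15 against 3.01 for Ramp3.

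**Figure D2:**
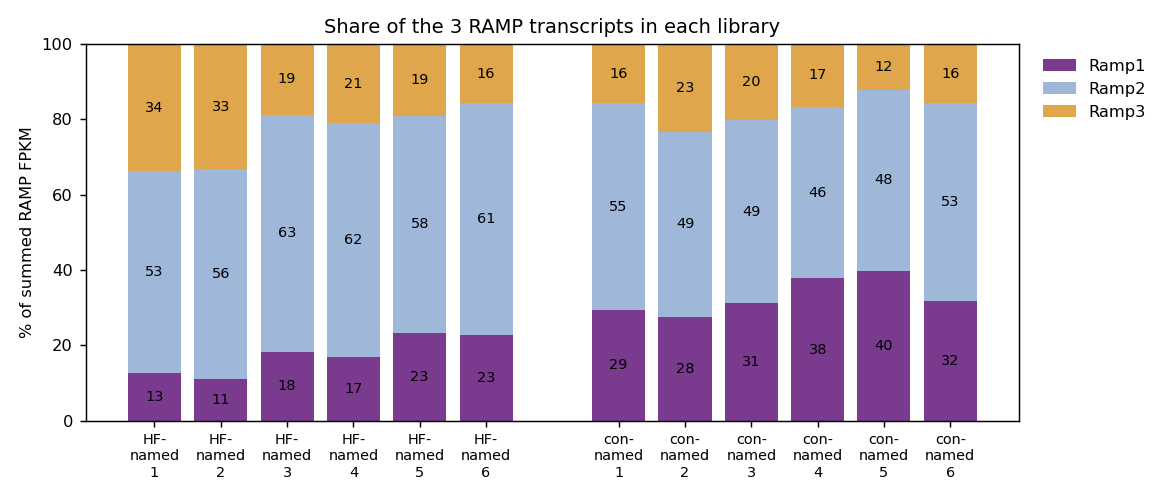
Stacked bars give the percent of the summed Ramp1, Ramp2 and Ramp3 FPKM in each of 12 libraries, with HF-named libraries on the left and con-named ones on the right; the number in each segment is its rounded percent. The Ramp1 segment spans 11.1 to 23.2% in HF-named and 27.5 to 39.7% in con-named libraries, and the Ramp3 segment is widest in HF-named libraries 1 and 2.

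Marker genes of several cell types moved with the groups, and their part in the members' differences was not tested. In bulk tissue, fewer cells of a type and less RNA per cell cannot be told apart. The 11 endothelial markers summed to 807 to 1189 CPM in HF-named and 1031 to 1394 CPM in con-named libraries, with none at 0. Of these, 3 fell and 0 rose: Kdr (log2 fold change -0.46, edgeR adjusted p = 0.0453), and Emcn and Vwf, named after their values were seen (-0.34, adjusted p = 0.0349, and -1.04, adjusted p = 0.000792). The Kdr call was lost in 9 of 12 fits that left out 1 library (adjusted p up to 0.101), all but those without HF-named 3, con-named 1 or con-named 3. The Kdr call was also lost with replicate numbers fitted as a block (edgeR adjusted p = 0.0751) and with DESeq2 (adjusted p = 0.0694). Cdh5, with Kdr the most abundant of the list, was at -0.34 and did not pass. Fibroblast markers summed to 1038 to 1293 CPM in HF-named and 1317 to 1627 CPM in con-named libraries, and 4 of 8 fell. These were Dcn (-0.35, edgeR adjusted p = 0.00519) and Gsn (-0.29, edgeR adjusted p = 0.0133), with Dpt and Tcf21, named after their values were seen (-0.36 and -0.39). Pericyte and smooth muscle markers went the other way in sum, 1399 to 1591 CPM in HF-named and 1217 to 1382 CPM in con-named libraries, though 0 of 8 tested passed. Rgs5 was at 0.20, and Abcc9 at 0.11 but at -0.0088 when scaled to library totals. Macrophage markers summed to 188 to 252 CPM in HF-named and 230 to 309 CPM in con-named libraries, and 3 of 8 fell, Lyz2 (-0.39), Csf1r (-0.35) and Mrc1 (-0.25, named after its values were seen). The Csf1r call was lost without HF-named 1, 2, 4 or 5 or con-named 2, 4, 5 or 6 (adjusted p up to 0.0781). With replicate numbers fitted as a block it was lost too (edgeR adjusted p = 0.0584). Without HF-named libraries 1 and 2 together the Kdr (adjusted p = 0.106), Gsn (0.0517), Lyz2 (0.0819) and Csf1r (0.152) calls were lost. Of the lymphatic endothelial markers, which include Prox1 and Flt4, 1 of 6 tested fell, Mmrn1, named after its values were seen (-0.85, edgeR adjusted p = 0.0209). Their sum was 97.8 to 124 CPM in HF-named and 93.4 to 119 CPM in con-named libraries, with Ccl21a at 0 throughout. That sum was mostly Prox1, and 4 of the 6 tested had a negative log2 fold change. Schwann cell and neuron markers, which include Dbh, had 0 of 5 calls and 11.9 to 16.1 CPM in HF-named against 11.4 to 17.2 CPM in con-named libraries. Adipocyte markers stayed at or below 0.332 CPM in HF-named and 0.177 CPM in con-named libraries.

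The members' CPM values were also divided by the summed endothelial markers, as a description. No other marker sum was used as divisor. The fibroblast sums did not overlap between the groups (1038 to 1293 CPM in HF-named and 1317 to 1627 CPM in con-named libraries). Pericyte and smooth muscle sums did not overlap either, in the other direction (1399 to 1591 CPM in HF-named and 1217 to 1382 CPM in con-named libraries). The part of any cell type in the members' differences was not tested. Calcrl per 100 CPM of endothelial markers was 2.20 ± 0.192 CPM in HF-named libraries (1.98 to 2.54) and 2.28 ± 0.184 CPM in con-named ones (2.12 to 2.56). HF-named library 3, with the highest Calcrl of its group, also had the group's highest endothelial sum, 1189 CPM. Adm per 100 CPM was 0.554 ± 0.0764 CPM in HF-named and 0.585 ± 0.0731 CPM in con-named libraries, and the groups overlapped where the CPM values had not. Ramp2 per 100 CPM was 2.69 ± 0.235 CPM in HF-named and 2.33 ± 0.341 CPM in con-named libraries. Ramp1 per 100 CPM was 0.721 ± 0.164 CPM in HF-named libraries (0.532 to 0.922) and 1.41 ± 0.261 CPM in con-named ones (0.979 to 1.68), with no overlap.

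**Figure D3:**
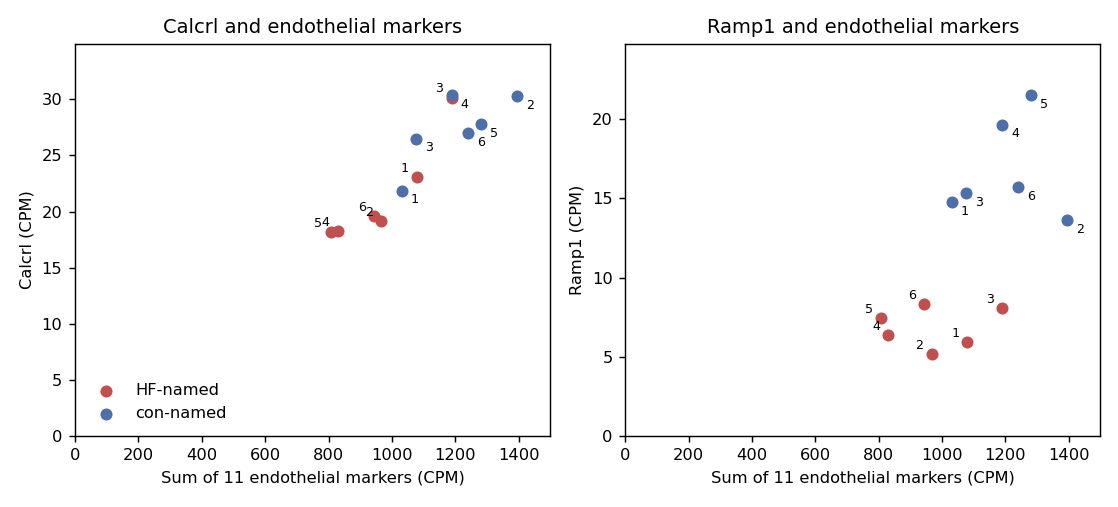
Calcrl (left) and Ramp1 (right) in CPM against the summed CPM of 11 endothelial markers, 1 point a library with its replicate number, HF-named in red and con-named in blue. The Calcrl points of the groups overlap (18.2 to 30.1 CPM in HF-named and 21.9 to 30.4 CPM in con-named libraries), and the Ramp1 points do not (5.14 to 8.30 CPM in HF-named and 13.6 to 21.5 CPM in con-named libraries); the part of the endothelial sum in either was not tested.

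Among genes that make, clear or bind these peptides, 10 of 12 listed were tested, 4 rose and 3 fell in HF-named libraries, with a median log2 fold change of 0.17 against -0.01 over all genes. Ackr3, a scavenger receptor that takes up adrenomedullin without G protein signalling, had 104 ± 15.3 CPM in HF-named and 67.6 ± 11.1 CPM in con-named libraries (log2 fold change 0.62 ± 0.11 SE, edgeR adjusted p = 0.00231). Mme, the peptidase neprilysin, had 8.47 ± 1.86 CPM in HF-named and 5.42 ± 0.908 CPM in con-named libraries (0.65 ± 0.16 SE, edgeR adjusted p = 0.0131). Cpe, which trims processed peptide precursors, rose by 0.22 on the log2 scale (edgeR adjusted p = 0.0133). Pam, the enzyme that amidates adrenomedullin and CGRP and was named after its values were seen, rose by 0.26 (edgeR adjusted p = 0.0143). Ece1, an endothelin-converting enzyme that can also cleave peptides in endosomes, changed by -0.29 (edgeR adjusted p = 0.00655). The Cpe call was lost when libraries were scaled to their totals (0.11, adjusted p = 0.138), and the Mme and Cpe calls without HF-named libraries 1 and 2 together (adjusted p = 0.053 and 0.0693).

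The rest of the family was nearly absent from these libraries. Calcr (the calcitonin receptor), Calcb (a second CGRP gene) and Iapp (amylin) had 0 counts in all 12 libraries, which allows up to 3 counts a library. Crcp, an intracellular protein described as a component of the CGRP receptor, had 9.72 ± 0.494 CPM in HF-named and 10.4 ± 0.732 CPM in con-named libraries (-0.09, edgeR adjusted p = 0.414). Other class B receptors that have been reported to pair with RAMPs had 6 of 11 tested and 0 calls, with a median of -0.08. The smallest p among them was that of Adcyap1r1, the PACAP receptor (-0.31 ± 0.11 SE, edgeR adjusted p = 0.0626), which passed when libraries were scaled to their totals (-0.43, adjusted p = 0.0154).

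Downstream of the receptor, the list of Gs, adenylyl cyclases, protein kinase A and Epac had 22 of 23 genes tested, 3 that rose and 0 that fell, with a median of 0.03. Akap13, an anchoring protein of protein kinase A, rose by 0.36 (edgeR adjusted p = 0.00406), Prkacb, a catalytic subunit, by 0.19 (edgeR adjusted p = 0.015) and Rapgef4, which encodes Epac2, by 0.20 (edgeR adjusted p = 0.0287). The Prkacb and Rapgef4 calls were lost when libraries were scaled to their totals (adjusted p = 0.344 and 0.231). Both were also lost without HF-named libraries 1 and 2 together (0.0519 and 0.0723). Rapgef4 lost its call in 6 of 12 fits without 1 library, those without HF-named 2, 4 or 5 or con-named 2, 5 or 6 (adjusted p up to 0.0744). Its call was lost too with replicate numbers fitted as a block (0.076) and with no filter beyond 1 count (0.0644). Of 6 desensitisation genes tested, 1 rose and 1 fell, with a median of -0.10. Grk5, a kinase that phosphorylates active receptors, had 28.3 ± 4.76 CPM in HF-named and 19.2 ± 3.94 CPM in con-named libraries (0.55 ± 0.13 SE, edgeR adjusted p = 0.0121). Grk3, a related kinase, had 15.8 ± 1.78 CPM in HF-named and 18.9 ± 0.791 CPM in con-named libraries (-0.26 ± 0.07 SE, edgeR adjusted p = 0.0265). The Grk3 call was lost without HF-named library 6 (adjusted p = 0.0565) and with replicate numbers fitted as a block (adjusted p = 0.0538). The Grk5 call was lost without HF-named libraries 1 and 2 together (adjusted p = 0.0576).

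Adm is a known target of hypoxia-inducible factors, and the list of their targets and regulators was set beside it. Of 20 genes tested, 6 rose and 0 fell, with a median of 0.11. The other 14 did not pass, and 8 of the 20 had a negative log2 fold change. The Adm value was -0.40, and the part of hypoxia-inducible factors in it was not tested. The 5 of smallest p were P4ha1, a collagen prolyl hydroxylase (0.46, edgeR adjusted p = 0.00139), Egln3, an oxygen-sensing hydroxylase (0.36, edgeR adjusted p = 0.00144), Pdk1, a kinase that restrains pyruvate dehydrogenase (0.43, edgeR adjusted p = 0.0049), Bnip3, a mitochondrial autophagy receptor (0.55, edgeR adjusted p = 0.00606), and Vegfa, an endothelial growth factor (0.33, edgeR adjusted p = 0.0173). Hif1a itself, named after its values were seen, was at 0.25 ± 0.08 (SE) and did not pass. The Vegfa call was lost when libraries were scaled to their totals (0.21, adjusted p = 0.105) and without HF-named libraries 1 and 2 together (adjusted p = 0.0801). Bnip3 shares 22.3% of its exon bases with Gm45507 on the opposite strand.

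**Figure D4:**
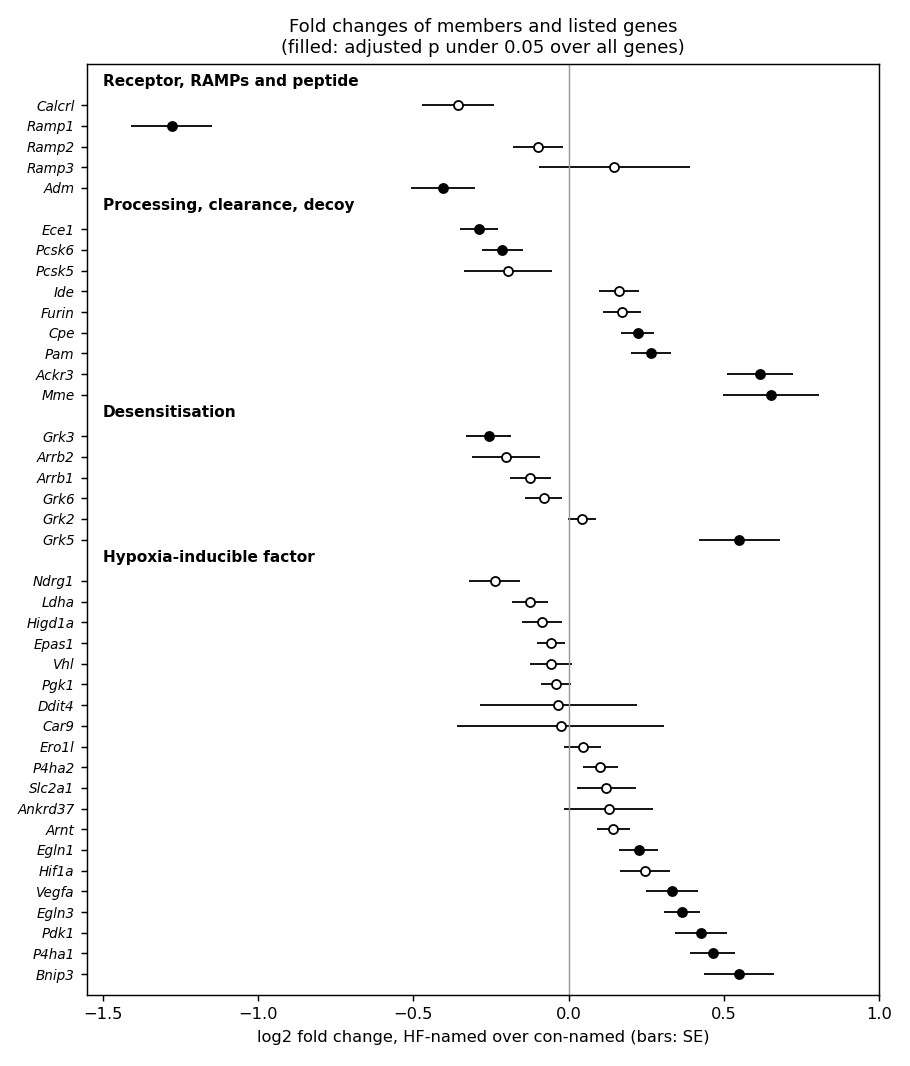
Log2 fold changes (HF-named over con-named) with SE bars for the 5 measurable members and for tested genes of 3 lists; filled points passed an adjusted p of 0.05 over all genes (edgeR). Ramp1 at -1.28 lies farthest from 0 among the genes drawn, and Adm lies at -0.40. The hypoxia list has filled points only to the right of 0 and open points on both sides, and its relation to Adm was not tested.

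Of 12 other vasoactive peptide and receptor genes tested, 1 rose and 3 fell, with a median of -0.19. Ednra, an endothelin receptor of smooth muscle, had 38.1 ± 5.40 CPM in HF-named and 27.7 ± 1.502 CPM in con-named libraries (0.46 ± 0.08 SE, edgeR adjusted p = 0.00276). Npr3, the natriuretic peptide clearance receptor, had 15.8 ± 4.13 CPM in HF-named and 25.4 ± 5.61 CPM in con-named libraries (-0.68 ± 0.16 SE, edgeR adjusted p = 0.0119). Apln, the vasodilator peptide apelin, had 9.98 ± 3.53 CPM in HF-named and 16.6 ± 3.43 CPM in con-named libraries (-0.74 ± 0.18 SE, edgeR adjusted p = 0.0153), and lost its call without HF-named libraries 1 and 2 together (adjusted p = 0.0753). Nos3, the endothelial nitric oxide synthase, one of the enzymes that L-NAME inhibits, was at -0.34 ± 0.09 (SE, edgeR adjusted p = 0.026). It lost its call in 5 of 12 fits without 1 library (adjusted p up to 0.0612), those without HF-named 4, 5 or 6 or con-named 2 or 5. The Nos3 call was also lost with replicate numbers fitted as a block (adjusted p = 0.0547). Nos3 shares 32.3% of its exon bases with genes on the opposite strand.

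The genes whose pattern was most like each member's were ranked by Pearson's r over the 12 libraries, on log2 CPM after subtracting each group's mean, among 13694 genes of at least 1 CPM. These r values are descriptions of libraries that share depth and preparation, and as the highest of many they are inflated by selection. Calcrl was closest to Sh3bgrl (0.94), Rab31 (0.94) and Rap2b (0.93). Ramp1 was closest to Tmem147os (0.92), Gm17428 (0.90) and Gm6939 (0.90), and Ramp2 to Snrpa (0.92), Uba2 (0.91) and Aspn (0.90). Ramp3 was closest to Armc5 (0.93), Adarb1 (0.93) and Galnt10 (0.91), and without HF-named libraries 1 and 2 the value for Adarb1 was 0.71. Adm was closest to Kmt5c (0.90), 1700058P15Rik (0.88) and Zbtb49 (0.88). The 15 genes had log2 fold changes of -0.36 to 0.14 and none passed the threshold.

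**Figure D5:**
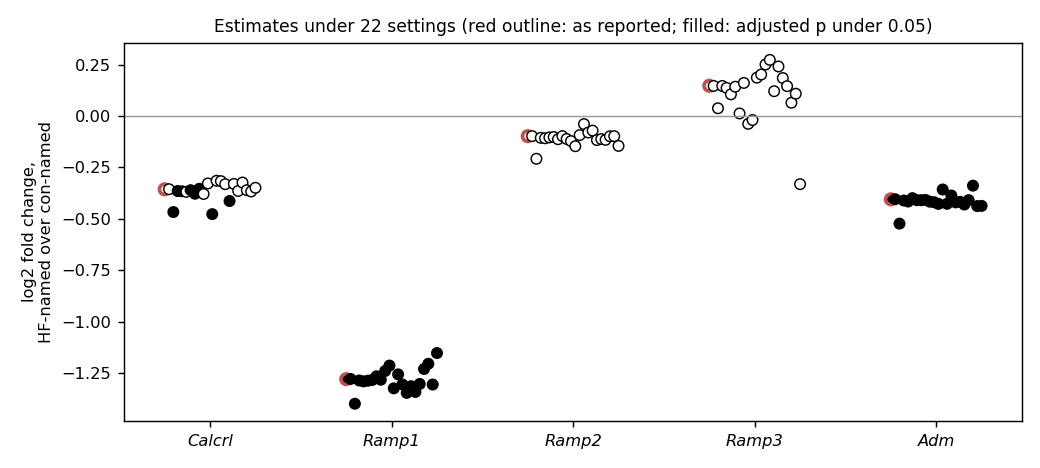
Log2 fold changes (HF-named over con-named) of the 5 measurable members under 22 settings, the reported one outlined in red and filled points past an adjusted p of 0.05. Ramp1 and Adm are filled in every setting, Calcrl stays negative but is filled in some only, and Ramp3 lies on both sides of 0.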

How the data were processed

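Poly-A-selected RNA of 12 ventricular samples was sequenced, per the labels' protocols. The authors deposited 1 table with read counts per gene, not normalized, FPKM values for each library, and their own log2 fold changes, per the file headers. The submitters' processing notes name cutadapt 1.15, HISAT2 2.0.5, HTSeq 0.9.1 and mm10. Not given in the sources used here are the annotation release and the strand setting. No strand-marking step is named, so overlapping genes on either strand are uncertain.

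The deposited FPKM values imply 1 length a gene (within a relative 0.001) for all 33411 genes with a count, equal to the GENCODE M21 exon bases for 7 of 7 members. They are scaled to column totals. The counts were analysed in R 4.3.3 with limma 3.58.1 and edgeR 4.0.16: filterByExpr, TMM, then the two-sided quasi-likelihood test on group alone, its p-values adjusted over the tested genes by Benjamini and Hochberg's method. Table features without a gene name numbered 503 and were not named. CPM values are TMM-scaled. DESeq2 1.42.0 and limma-voom were alternatives. On simulated counts of this comparison (14960 genes) changed genes were found in 70.1% of cases at 1.5-fold, 88.1% at 2-fold and 98.5% at 4-fold, with 12 false among 183 calls. The simulation changed 67, 67 and 66 genes at these folds, far fewer than the 2016 called in the data. The shares found can therefore differ from those in the data. Counting error is given as a coefficient of variation, and floors cover counting error only.

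The description label set each group, because titles and treatments give the opposite condition. The members and gene lists were chosen with earlier results of these data known. Named genes were the members, the 3 most alike of each, the called genes of each pathway list (up to 5, or where none was called the 1 of lowest p) and each marker list's 2 genes of highest level: endothelial, lymphatic endothelial, cardiomyocyte, atrial, fibroblast, pericyte and smooth muscle, macrophage, Schwann cell and neuron, and adipocyte. Results for 2 of the named genes are not reported here. Replicate numbers did not pair libraries: 0 of 6 same-numbered pairs had deviations that correlated above 0.1.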

Additional observations from a re-analysis of the deposited data

Results flagged for a closer look

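In 3 of 84 groups of 6 libraries, 1 library stood apart from the others by Dixon's criterion, which sets its gap to the nearest library against the group's range. Chance gives about 1 in 20 such groups. Adm in con-named library 5 had 8.79 CPM, with the other con-named libraries at 6.34 to 6.92 CPM. Mme in HF-named library 3 had 4.86 CPM, with the others of its group at 8.51 to 10.01 CPM. Cpe in con-named library 5 had 193 CPM, with the others of its group at 210.3 to 219 CPM.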

How the results depend on the processing

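Ramp1 and Adm stayed lower and past the threshold in all 21 alternatives run. The refits of members, here and above, used the libraries that chose them, so they describe dependence on processing and are no further test. Ramp1 was between -1.34 and -1.20 when 1 library was left out and Adm between -0.44 and -0.34. Calcrl stayed negative throughout and passed the threshold with library totals (-0.47), no filter beyond 1 count (-0.36), at least 1 CPM in 6 libraries (-0.37), mitochondrial transcripts left out (-0.36), limma-voom (-0.38) and DESeq2 (-0.35), and ranged from -0.48 to -0.31 without 1 library. Ramp3 ranged from -0.038 to 0.27 without 1 library and was -0.33 without HF-named libraries 1 and 2 together. The direction of Abcc9 turned with library totals (-0.0088), and Dbh ranged from -0.17 to 0.018 without 1 library. The cause of these changes was not tested.

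The 2016 genes past the threshold became 3065 with library totals, 1131 with a replicate block, 1129 without HF-named libraries 1 and 2 together (fewer samples), and 1355 to 2550 without 1 library. The other settings gave 1562 to 2360. With the replicate block, whose numbers did not pair the libraries (1 HF-named library of 6 correlated best with its own number), Ramp1 was -1.29 and Adm -0.40, both past the threshold, and Calcrl -0.37, not past. Over 37 further named genes and 777 alternatives, 64 lost the call, 17 gained it and 3 turned direction.

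Depth limits Adm2 and Calca, which had 0 to 2 counts a group. Ramp2 depends on how reads shared with Vps25 were counted.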
